A study of Mus musculus with 8 samples.

Results

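The transcripts described here come from mouse genes with the prefix Zfp and a number, most of which encode proteins with zinc fingers. All probes whose gene symbol in the platform annotation starts with Zfp and a digit were taken, and the tristetraprolin family (Zfp36, Zfp36l1, Zfp36l2 and Zfp36l3), whose fingers bind RNA, was left out. This gave 277 of the 16593 genes on an Illumina mouse bead array, with 374 of its 25697 probes. The samples were RNA that came down with an antibody to ELAVL1 (HuR), a protein that binds AU-rich and U-rich messenger RNA, from LbetaT2 cells, a mouse pituitary line of the gonadotrope lineage. All cells were held without serum for 16 h and then received gonadotropin-releasing hormone (GnRH, 4 arrays) or vehicle (4 arrays) for 30 min. LbetaT2 is a single immortalised line, and the labels name no separate cultures behind the replicates, so the spread that enters the p-values is that between these samples and may be technical. No control pull-down and no RNA from before the pull-down was analysed here, and each value is an amount in the pull-down, in which binding and transcript level cannot be told apart.

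In C2H2 zinc finger proteins, a pair of cysteines and a pair of histidines hold a zinc ion in each finger, and rows of fingers read DNA. Many also carry a KRAB domain, which recruits the corepressor TRIM28 and through it enzymes that lay down repressive chromatin, and a large share of these proteins silence retroelements. GnRH acts on gonadotropes through a receptor coupled to calcium, protein kinase C and MAP kinases, and its fast transcriptional response includes the Egr genes, which are themselves C2H2 factors but do not carry the Zfp name.

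The arrays had median raw signals of 33.4 to 42.1 and 10802 to 11663 probes above background, that is, with a detection p below 0.05 against the array's control beads. Of the gonadotrope markers, Gnrhr, Cga, Gata2, Lhx3 and Pitx1 were above background on all 8 arrays. Nr5a1 was above background on 4 arrays with 1 probe and on 1 array with the other, and Lhb and Fshb, the gonadotropin beta subunits, were not above background on any. The 6 markers of other pituitary lineages on the array (Pomc, Tbx19, Prl, Gh, Tshb and Ghrhr) and the blood marker Ptprc were above background on none. The endothelial markers Pecam1 and Cdh5 were above background on all 8, and Col1a1, Col1a2 and Pdgfrb on none. Between the groups the 3 endothelial probes differed by 0.11 to 0.28 on the log2 scale, and their part in the results was not tested.

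Most Zfp genes gave a signal. A probe entered the test if it was above background on at least 4 of the 8 arrays, which 203 of 374 Zfp probes (54.3%) did, against 44.0% of all probes on the array. The 203 probes came from 167 of the 277 genes (60.3%). Of the 277 genes, 135 had a probe above background on all 8 arrays, 32 reached 4 to 7 arrays, 32 reached 1 to 3, and 78 were above background on none. On single arrays 192 to 201 Zfp probes were above background after GnRH, and 188 to 216 in vehicle. The mean was 197.8 ± 4.0 after GnRH and 202.8 ± 13.0 in vehicle (SD, n = 4 each), and the GnRH values lay inside the vehicle range. No Zfp probe was above background on all arrays of one group and none of the other. The nearest to this were probes of Zfp276, Zfp61 and Zfp788, above background on 0 GnRH arrays and 3 vehicle arrays, which did not enter the test. These 3 genes were named after their values were seen. No share over all probes of the array is given beside these counts, so they describe the Zfp probes only.

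Among probes above background, those of Zfp genes tended to be dimmer than the rest. Signals are given here as log2 values after background correction and quantile normalization. The median over the 203 tested Zfp probes was 6.17, and that over all 11318 tested probes was 6.53. On each array the Zfp median lay below that of all tested probes, by 0.30 to 0.44 after GnRH and by 0.33 to 0.41 in vehicle (log2 signal). When all tested probes were split by signal into 4 classes of equal size, the dimmest held 60 of the 203 Zfp probes (29.6%), the next 60 and 45, and the brightest 38 (18.7%). Brightness depends on the probe as well as on the amount of transcript, so these figures describe the set of probes and give no order of abundance for single genes.

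**Figure D1:**
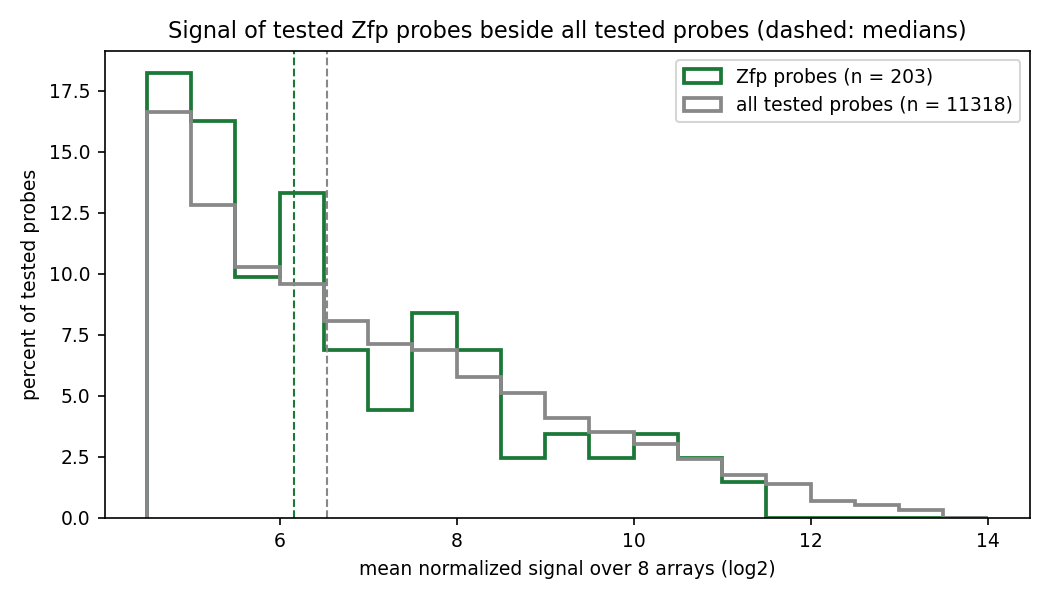
Percent of tested probes (y axis) by mean normalized log2 signal over the 8 arrays (x axis), for Zfp probes (green) and all tested probes (grey), with dashed lines at the medians of 6.17 and 6.53. The Zfp probes hold a larger share at the dim end and none lies above 11.43.

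The first comparison asks which Zfp transcripts differ in the ELAVL1 pull-down after GnRH. A single member, Zfp184, which encodes a KRAB zinc finger protein, was higher. Its log2 signals were 6.92, 7.09, 6.21 and 7.55 on the GnRH arrays, against 4.92, 5.46, 5.60 and 5.30 on the vehicle arrays. All 4 GnRH values lay above all 4 vehicle values, with the third GnRH replicate nearest to the vehicle arrays. The raw bead signals were 168, 152, 91.3 and 199 after GnRH and 51.5, 65.4, 64.9 and 44.6 in vehicle, and the probe was above background on every array, with detection p-values up to 0.0201 in vehicle. The mean log2 signal was 6.94 ± 0.56 after GnRH and 5.32 ± 0.30 in vehicle (SD, n = 4 each). The change was 1.62 ± 0.27 on the log2 scale (SE), a 3.08-fold rise with a 95% interval of 2.04 to 4.64 (limma, Benjamini-Hochberg adjusted p = 0.0394 over all tested probes). Zfp184 has 1 probe on the array, so no second probe bears on the rise, and cross-hybridisation with other zinc finger transcripts was not tested.

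The call for Zfp184 was lost when any one of 7 arrays was left out. Leaving out vehicle replicate 1, 2, 3 or 4 gave adjusted p-values of 0.0968, 0.111, 0.107 and 0.111 (limma), and leaving out GnRH replicate 1, 2 or 4 gave 0.156, 0.209 and 0.105, while without GnRH replicate 3 it was 0.00919. The log2 change itself stayed between 1.42 and 1.87 in these fits. The call also ended with an offset of 50 in place of 16 (change 1.09, adjusted p = 0.125), with no background correction (1.10, adjusted p = 0.108) and without the filter on dim probes (limma adjusted p = 0.337). Within replicate numbers the GnRH value minus the vehicle value was 2.00, 1.63, 0.60 and 2.25 for numbers 1 to 4.

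**Figure D2:**
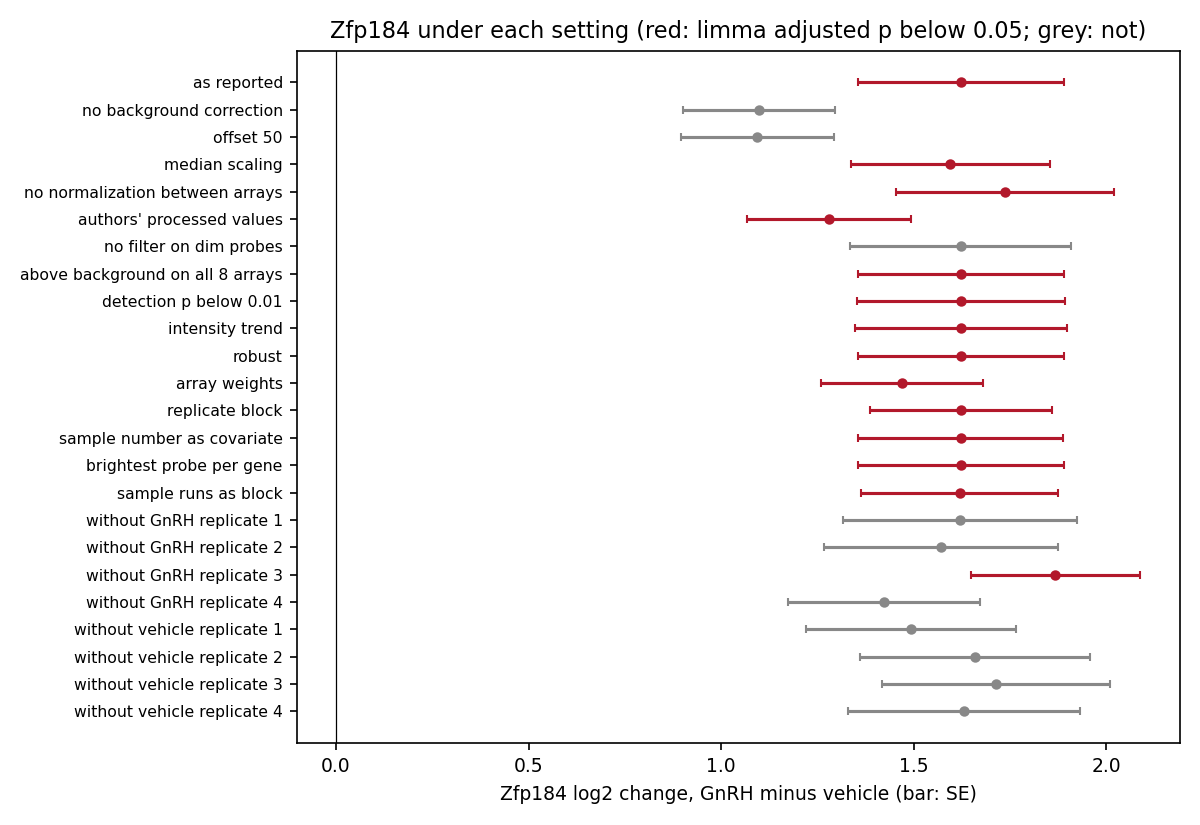
Log2 change of Zfp184, GnRH minus vehicle (x axis, bars SE), under each processing setting (y axis). Every setting gave a change between 1.09 and 1.87, and points in red had a limma adjusted p below 0.05, which 13 of the 23 alternatives did.

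Over the whole array 0.265% of tested probes were higher at this threshold (30 of 11318) and 0% were lower. Of the 203 Zfp probes 1 was higher (0.493%), a share that 1 probe decides and that lies close to the background. At an unadjusted p below 0.05, 1 Zfp probe was higher (0.493%) and 3 were lower (1.48%), against 2.09% and 0.813% of all tested probes. Probes whose GnRH values all lay above their vehicle values made up 1.53% of all tested probes and 0.493% of the Zfp probes, again Zfp184 alone. Probes with all GnRH values below made up 0.618% of all tested probes and 0.985% of the Zfp probes, which are 2 probes, of Zfp317 and Zfp286. Zfp286 was named after its values were seen.

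Set against the other 202 tested Zfp probes, Zfp184 stood apart in the size of its change. The others ran from -0.55 to 0.47 on the log2 scale, with a median of -0.05, and their lowest adjusted p was 1.00 (limma). The 95% interval of 198 of them lay wholly between -1 and 1, and that of 90 between -0.5 and 0.5. None of these intervals reached the Zfp184 change of 1.62, the highest upper bound being 1.12, for Zfp948. The intervals bound the change in signal. For dim probes they do not bound a fall in transcript, since a signal near background has little room to drop. Of the tested Zfp probes 60 were in the dimmest class, with mean log2 signals from 4.61 to at most 5.32. For scale, the probe of Zfp568, above background on no array, averaged 4.26. On each array the log2 signal of Zfp184 minus the median of the other tested Zfp probes was 0.68, 0.89, 0.10 and 1.35 after GnRH, and -1.37, -0.69, -0.57 and -0.93 in vehicle. Zfp184 thus lay above the family's middle on every GnRH array and below it on every vehicle array. These are differences between probes' brightness and serve only to follow 1 probe across arrays. Zfp184 was singled out with its rise already known, so the contrast with the other members is a description without a test. Its place among all called probes was in the middle, with the 18th largest change of 30.

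**Figure D3:**
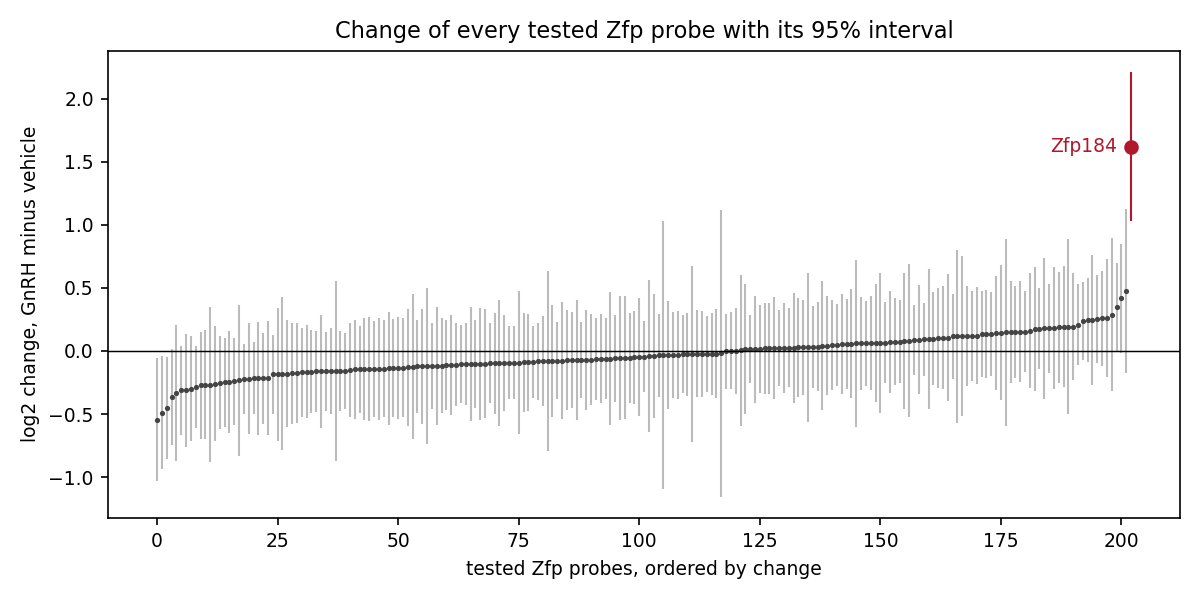
Log2 change, GnRH minus vehicle (y axis), of the 203 tested Zfp probes in order of change (x axis), with 95% intervals. Zfp184 (red) at 1.62 lies above every other member, the next being Zfp948 at 0.47.

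The family as a whole moved little relative to all tested probes. The median log2 change of the 203 tested Zfp probes was -0.04, with quartiles at -0.13 and 0.07, and that of all tested probes was -0.01, with quartiles at -0.12 and 0.11. Quantile normalization gives every array the same distribution, so a shift shared by most probes could not show in these medians. Without normalization between arrays they were 0.062 for the Zfp probes and 0.11 for all tested probes. With normalization, a negative change was found for 119 of the 203 Zfp probes (58.6%) and for 51.9% of all tested probes. Replicates of Zfp probes varied slightly less than those of all tested probes, with a median pooled SD of 0.25 against 0.26 (log2 signal). Zfp184 was among the more variable members, with a pooled SD of 0.45 that 19 other Zfp probes exceeded.

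**Figure D4:**
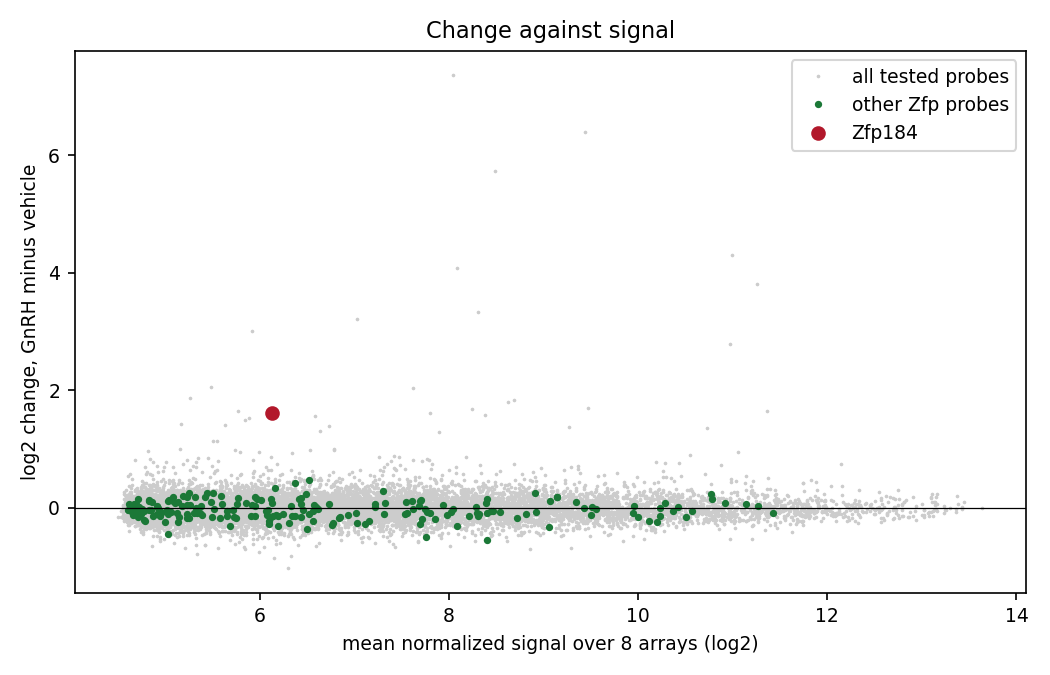
Log2 change, GnRH minus vehicle (y axis), against mean normalized log2 signal (x axis) for all tested probes (grey), Zfp probes (green) and Zfp184 (red). Zfp184 has a mean signal of 6.13, near the middle of the tested Zfp probes, 48.5% of the others being dimmer.

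The sequence around the start of Zfp184 was searched for short motifs, which were chosen after the Zfp184 result and this sequence had been seen. Among them were those of Egr factors and of ETS-domain factors, a class that includes end points of MAP kinase signalling. RefSeq gives 2 starts for Zfp184, 6 bases apart, and the window of the second holds the same 2 EGR cores and 1 ETS core. The window of the first, of 300 bases (GRCm38.p6, chr13:21944844-21945143, plus strand), runs from 250 bases before the start to 50 after it. Beside it stand the windows of Zfp3, on chr11:70764197-70764496 (plus strand), and of Zfp113, the member with the largest negative change, on chr5:138155695-138155994 (minus strand). Zfp3 was taken as the one with the highest change among the other tested members with both kinds of motif. Capitals mark matches, on either strand, to the EGR core GTGGGCG, the ETS core CCGGAAGT, the CRE core TGACG and the CCAAT box.
Zfp184: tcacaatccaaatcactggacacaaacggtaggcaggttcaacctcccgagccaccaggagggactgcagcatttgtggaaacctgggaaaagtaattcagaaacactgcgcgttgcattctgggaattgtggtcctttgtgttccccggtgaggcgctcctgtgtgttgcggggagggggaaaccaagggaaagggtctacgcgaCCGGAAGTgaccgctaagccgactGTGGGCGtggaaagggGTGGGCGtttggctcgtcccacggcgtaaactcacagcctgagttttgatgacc
Zfp3: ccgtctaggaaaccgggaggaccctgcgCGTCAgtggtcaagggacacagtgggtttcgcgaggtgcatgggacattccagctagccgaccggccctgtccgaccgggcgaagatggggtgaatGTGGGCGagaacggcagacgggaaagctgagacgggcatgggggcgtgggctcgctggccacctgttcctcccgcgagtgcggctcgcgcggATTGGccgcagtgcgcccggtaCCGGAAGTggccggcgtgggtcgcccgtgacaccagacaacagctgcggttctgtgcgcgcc
Zfp113: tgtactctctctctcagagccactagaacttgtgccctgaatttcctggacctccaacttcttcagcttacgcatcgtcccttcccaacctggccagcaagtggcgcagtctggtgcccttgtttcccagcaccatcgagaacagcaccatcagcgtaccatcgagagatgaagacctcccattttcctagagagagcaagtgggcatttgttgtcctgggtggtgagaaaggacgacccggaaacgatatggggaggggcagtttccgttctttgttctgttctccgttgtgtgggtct

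The Zfp184 window held 2 EGR cores, at bases 231 to 237 and 247 to 253 counted from the first base printed, and 1 ETS core at bases 207 to 214, with no overlap between them. It held none of the other motifs searched, which were the CRE core, the full CRE TGACGTCA (which contains the core), the AP-1 site TGACTCA, the CArG box and CCAAT. Over all 32851 RefSeq windows of this length 7.97% held the EGR core and 0.883% held it more than once, and 3.89% held the ETS core, 20.8% the CRE core, 1.79% the full CRE, 5.20% the AP-1 site, 1.63% the CArG box and 37.4% CCAAT. The table covered 227 of the 277 Zfp genes. Of these genes 12.8% held the EGR core and 11.5% the ETS core, against 8.99% and 4.31% of all genes with an entry. Other motifs were also more frequent among them. The CRE core was held by 35.7%, the full CRE by 4.41% and CCAAT by 49.8%, against 23.0%, 2.03% and 41.1%. The AP-1 site (4.41% against 5.95%) and the CArG box (1.76% against 1.81%) were not. The median GC content was 55.7% in the windows of Zfp genes and 52.7% in all windows.

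Other members with the EGR core did not pass the test. Of the 139 tested Zfp genes with an entry 16 held the EGR core (11.5%, against 8.99% of all genes with an entry). Zfp184 was the only one with 2. Of all genes with an entry 1.03% held 2 or more, so 1 such gene among 139 is near the background. The other 15 stood between -0.30 and 0.19 on the log2 scale, with a median of -0.03, and none passed (limma adjusted p = 1.00 for each). Zfp3, which shares an EGR and an ETS core with Zfp184, had log2 signals of 5.33, 5.76, 5.57 and 5.43 after GnRH, against 4.83, 5.68, 5.57 and 5.25 in vehicle. The groups overlapped, and the change was 0.19 ± 0.20 (SE, limma adjusted p = 1.00). The remaining members with both cores, Zfp316 and Zfp473, stood at -0.03 ± 0.16 and -0.15 ± 0.16. Both were dim, with group means of 4.80 to 4.95, as were several more of the 15. A match describes letters in a window, not a bound site, and its part in the change of Zfp184 was not tested. 

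Zfp184 lies beside a cluster of replication-dependent histone genes, whose transcripts end in a stem-loop rather than a poly(A) tail. Of the 6 protein-coding genes on either side in the RefSeq gene order, 6 had a tested probe, all of them histone genes. Their log2 changes ran from -0.24 ± 0.19 for H2bc12 to 0.05 ± 0.29 for H2ac24 (SE), and none passed (limma adjusted p = 1.00 for each). The only other neighbour with a probe, Prss16, was above background on 1 array.

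Zfp genes often stand next to each other in the genome. In the RefSeq gene order 145 of the 277 had a Zfp gene as a direct neighbour and 132 had none. A tested probe was available for 56.6% of the genes with such a neighbour and for 64.4% of those without. The median log2 signal of the tested genes was 6.10 with a Zfp neighbour and 6.44 without, and the median log2 change was -0.06 with one and -0.003 without. By chromosome, in the 227 genes of the promoter table, chromosome 7 held most, with 66 genes of which 40 were tested. Their changes ran from -0.45 to 0.35 with a median of -0.08. Chromosome 17 followed with 29 genes, 16 of them tested, at -0.37 to 0.47 with a median of -0.01, and chromosome 13 with 21 genes, 11 of them tested, with a median of -0.02 and Zfp184 as its highest.

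After Zfp184 the members with the largest positive changes were Zfp948 at 0.47 ± 0.29, Zfp160 at 0.42 ± 0.19 and Zfp27 at 0.35 ± 0.16 (log2 change ± SE), and none passed (limma adjusted p = 1.00 for each). Zfp948 had log2 signals of 6.78, 6.74, 6.20 and 7.33 after GnRH, against 6.10, 5.66, 6.49 and 6.91 in vehicle. Its groups overlapped widely. Zfp160 had 6.73, 6.52, 6.16 and 6.90 after GnRH, against 6.50, 5.89, 6.16 and 6.10 in vehicle, and Zfp27 had 6.36, 6.12, 6.25 and 6.64 after GnRH, against 5.90, 6.27, 5.93 and 5.88 in vehicle. In both, most GnRH values were above most vehicle values, with some overlap. The changes of the tested Zfp27 probes spanned 0.17, within the same sign. This ranking takes the probe with the lowest p for each gene, and other probes of a gene are not ranked. By that probe, the rest of the 8 largest positive changes were those of Zfp653, Zfp612, Zfp131, a BTB-domain zinc finger protein, and Zfp459. Their changes were all between 0.25 and 0.26. These 4 genes did not pass either. With 1 array left out the change of Zfp948 ran from 0.26 to 0.69, that of Zfp653 from 0.079 to 0.36 and that of Zfp459 from 0.046 to 0.47.

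On the negative side the 3 members with an unadjusted p below 0.05 were Zfp113 at -0.55 ± 0.22, Zfp322a at -0.49 ± 0.20 and Zfp689 at -0.45 ± 0.18 (log2 change ± SE, limma adjusted p = 1.00 for each). Zfp113 had log2 signals of 8.31, 8.13, 8.24 and 7.86 after GnRH, against 8.08, 8.80, 9.16 and 8.68 in vehicle, and vehicle replicate 1 fell among the GnRH values. A second Zfp113 probe stood at -0.07 ± 0.22. Zfp322a, which supports pluripotency genes in mouse embryonic stem cells, had 7.76, 7.60, 7.32 and 7.37 after GnRH, against 7.71, 7.63, 8.32 and 8.34 in vehicle, so that only vehicle replicates 3 and 4 stood clear of the GnRH values. Zfp689 had 5.05, 4.56, 4.87 and 4.75 after GnRH, against 4.89, 5.29, 5.63 and 5.23 in vehicle, and its second probe stood at -0.27 ± 0.19. Zfp760, Zfp763, Zfp870, Zfp64, known in mouse as a partner of Notch, and Zfp715 followed, at -0.37 to -0.30, with overlapping groups. Each value is that of the probe with the lowest p. The changes of the tested probes spanned 0.25 for Zfp760, 0.27 for Zfp763 and 0.22 for Zfp64, within the same sign.

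**Figure D5:**
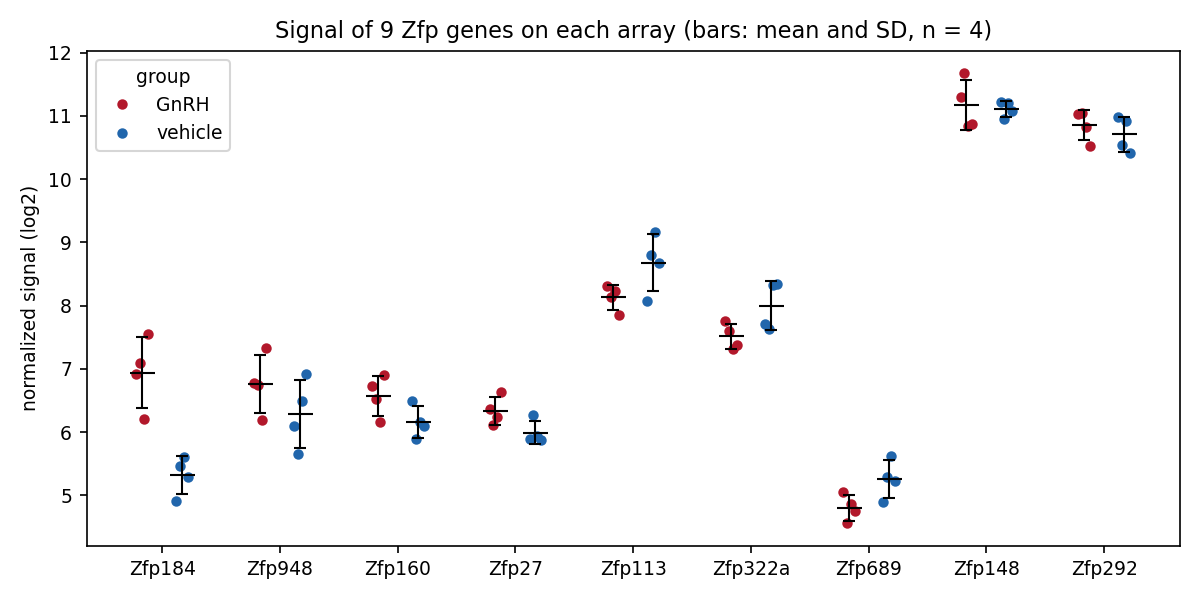
Normalized log2 signal (y axis) of 9 Zfp genes (x axis) on each GnRH array (red) and vehicle array (blue), with mean and SD (n = 4 each). The groups are fully apart for Zfp184 and overlap for the other 8 genes.

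The 6 members with the brightest probes did not pass the test. Zfp46 averaged 11.39 ± 0.12 on the GnRH arrays and 11.47 ± 0.06 on the vehicle arrays, and Zfp251 averaged 11.28 ± 0.21 on the GnRH arrays and 11.25 ± 0.19 on the vehicle arrays (log2 signal, SD, n = 4 each). Zfp148, a factor for GC-rich promoters also called ZBP-89, had 11.29, 11.67, 10.84 and 10.87 after GnRH, against 11.22, 10.95, 11.21 and 11.08 in vehicle. Its vehicle values lay inside the GnRH range, and the change was 0.06 ± 0.20 (SE). Zfp292, known from rat as Zn-15, a partner of Pit-1 at the growth hormone gene, had probes at 0.15 ± 0.18 and -0.06 ± 0.16. Zfp597 stood at 0.08 ± 0.24 and Zfp941 at 0.24 ± 0.14. For all 6 genes the 95% interval of the log2 change lay between -1 and 1 (limma adjusted p = 1.00 for each).

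Where a gene had several probes, they did not always move together. Of the 30 genes with more than 1 tested probe, 11 had changes of both signs, and the median range between probes of a gene was 0.13. The widest ranges were those of Zfp113 (0.47) and Zfp790 (0.44), whose probes stood at -0.16 ± 0.14 and 0.29 ± 0.27. Zfp410, which is known to drive transcription of Chd4, had probes at -0.27 ± 0.28, -0.07 ± 0.16 and 0.09 ± 0.13, and the Chd4 probes stood at 0.06 ± 0.19, 0.13 ± 0.40 and 0.25 ± 0.21. Zfp428 had probes at -0.22 ± 0.20 and 0.06 ± 0.14. One Zfp317 probe had 10.06, 10.01, 10.12 and 9.86 after GnRH, against 10.15, 10.26, 10.28 and 10.23 in vehicle, which are fully apart at a change of only -0.22 ± 0.13 (log2 change ± SE, limma adjusted p = 1.00). Its other probes, at 0.06 ± 0.30 and -0.16 ± 0.32, did not share the separation.

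Members with a described function were grouped by role. Of the silencing factors Zfp809, which brings TRIM28 to retroviral DNA in mouse embryonic stem cells, was the only one tested of 5 on the array, at -0.06 ± 0.16, while Zfp445, Zfp568 and Zfp819 were above background on no array and Zfp42 on 1. Of 14 transcription factors on the array 11 were tested and 0 passed in either direction, with a median change of -0.04 over their probes. Among them were Zfp335, a factor of neural progenitors, at -0.24 ± 0.16, Zfp219 at -0.25 ± 0.17, Zfp462, a chromatin protein, at -0.26 ± 0.21, and Zfp423, a factor of adipocyte commitment, at 0.18 ± 0.22 and 0.19 ± 0.31. Of 10 members that act on RNA, ribosomes or the spindle 9 were tested and 0 passed, with a median of -0.02. These included Zfp638 at -0.15 ± 0.18, Zfp326, a link between splicing and RNA polymerase II, at 0.18 ± 0.25 on 1 probe and at -0.02 ± 0.32 and -0.13 ± 0.26 on the others, Zfp318, which permits IgD expression in B cells, at -0.10 ± 0.15, and Zfp385a at -0.14 ± 0.20. Zfp451, a SUMO ligase, stood at 0.12 ± 0.18 and Zfp91, a ubiquitin ligase, at 0.03 ± 0.27, and 0 of these 2 passed. No member of the 4 lists passed at an unadjusted p below 0.05 either (limma). Beside 0.265% higher and 0% lower among all tested probes, counts of 0 in lists of this size do not set them apart.

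Most of the partners through which KRAB proteins silence chromatin were above background, and none passed. Of 24 such genes on the array 21 were tested. Of the other 3, Mphosph8 and Dnmt3a were above background on no array and Atrx on at most 1. Of the 21 tested, 0 were higher and 0 lower (limma), also at an unadjusted p below 0.05. With 0.265% of all tested probes higher and 0% lower (2.09% and 0.813% unadjusted), a count of 0 in so short a list is near the background. The median change over their 27 probes was -0.07, beside -0.01 for all tested probes. Trim28, the KRAB corepressor, stood at a log2 change of -0.10 ± 0.21, and Setdb1, its histone H3 lysine 9 methyltransferase, at 0.08 ± 0.15. The 4 with the lowest p were Daxx, a histone H3.3 chaperone, at -0.28 ± 0.19, Dnmt1, the maintenance DNA methyltransferase, at -0.22 ± 0.17, Smarcad1, a chromatin remodeller, at -0.20 ± 0.16, and Rbbp7, a histone-binding protein, at -0.19 ± 0.16 (log2 change ± SE).

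Other families of zinc finger genes were counted in the same way. Of the 4 tested Egr genes 3 were higher. Egr1 changed by 3.80 ± 0.19 and Egr2 by 6.39 ± 0.12, and Egr4 was above background on all 4 GnRH arrays and 0 vehicle arrays, so that no size is given for it. Egr3 stood at -0.25 ± 0.20, but its probe was above background on only 1 GnRH array and on 4 vehicle arrays. Its mean log2 signals of 4.69 after GnRH and 4.93 in vehicle were close to background, so its response is uncertain. Of 10 tested Klf genes 1 was higher, Klf6, at 1.35 ± 0.18 on 1 of its probes and 0.99 ± 0.41 on the other. The Klf changes ran from -0.45 to 1.41, the highest being that of Klf2 (1.41 ± 0.27), whose groups did not overlap and which missed the threshold (limma adjusted p = 0.0929). Of 20 tested Zbtb genes 0 were higher or lower, with changes from -0.29 to 0.34, and the same held for 9 tested Zscan and Zkscan genes, from -0.31 to 0.34 (limma adjusted p below 0.05 as the threshold). Of the 167 tested Zfp genes 1 was higher, and differences between families were not tested.

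Some Zfp transcripts differed more between replicate numbers than between treatments. Zfp106, which encodes an RNA-binding protein of motor neurons and was named after its values were seen, had the highest replicate spread of the tested members. One of its probes had log2 signals of 5.10, 4.97, 5.89 and 6.86 after GnRH, against 5.37, 5.30, 5.26 and 7.03 in vehicle. Its second probe had 4.90, 4.78, 5.60 and 6.77 after GnRH, against 5.16, 5.01, 4.99 and 6.95 in vehicle. On both probes replicate 4 of each group stood above the other 6 arrays, by 3.10-fold and 3.44-fold in the means, while the changes with GnRH were -0.03 ± 0.48 and -0.02 ± 0.51 (log2 change ± SE). Over the family, both replicate 4 arrays lay above the other 6 for 23 Zfp probes (11.3%, against 10.7% of all tested probes) and below them for 30 (14.8%, against 10.4%). For replicate 1 the counts were 20 above (9.85%, against 9.79%) and 18 below (8.87%, against 10.7%). For replicate 2 the counts were 4 above (1.97%, against 1.85%) and 3 below (1.48%, against 1.56%). For replicate 3 the counts were 5 above (2.46%, against 2.39%) and 4 below (1.97%, against 2.72%). The labels do not say what a replicate number stands for, and its part in these values was not tested.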

How the data were processed

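The values used were bead signal intensities, linear and without normalization between arrays as far as they show, with a detection p-value beside each, per the file headers of the table the authors deposited. A second deposited table holds processed intensities, made by the authors with steps not given in the sources used here, which name no genome build. Groups and replicate numbers came from the titles.

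Of 25697 probes 23978 had 1 gene symbol, 0 several and 1719 none in the platform annotation. All 374 Zfp probes matched a RefSeq gene (GRCm38.p6). Background was corrected by normexp with the detection p-values as guide and an offset of 16, followed by quantile normalization and log2 (limma 3.58.1, R 4.3.3). Probes with detection p below 0.05 on at least 4 arrays entered lmFit and eBayes, with no block. P-values were adjusted over all of these probes (Benjamini-Hochberg, 0.05), and the fit was tested on simulated data. The simulated arrays were independent, so that test does not cover variation shared by arrays of a replicate number. A gene with several probes is represented by that with the lowest p. The number of arrays limits the precision.

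Named genes were Zfp184, called members, the 8 largest changes in each direction, the 6 highest signals, the 6 genes whose probes differed most, and up to 4 genes of each role list and of the KRAB partners by lowest p. Zfp3, Zfp316, Zfp473, Trim28, Setdb1, Chd4, the neighbours of Zfp184 and genes of other families were named outside this rule, with their values seen. Members and lists were chosen with earlier results of these data known. Protein domains and probe sequences were not analysed here. Alternatives changed the background correction, normalization, filters, variance model, blocks and arrays included.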

Additional observations from a re-analysis of the deposited data

Results flagged for a closer look

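Over the 41 named genes, 82 groups of 4 arrays were searched for an array far from the other 3 (Dixon's criterion), and 8 had one, where chance gives about 1 in 20. None of the 8 was an array of Zfp184. Zfp27 had vehicle replicate 2 at a log2 signal of 6.27, with the other vehicle arrays at 5.88 to 5.93. Zfp612 had GnRH replicate 3 at 5.19, with the others at 5.73 to 5.81, and Zfp597 had GnRH replicate 4 at 10.69, with the others at 11.02 to 11.06. Zfp941 had GnRH replicate 1 at 10.72, with the others at 10.93 to 10.96. The dim Zfp790 probe had GnRH replicate 3 at 4.80, with the others at 4.58 to 4.59, and vehicle replicate 3 at 5.06, with the others at 4.68 to 4.73. Zfp335 had vehicle replicate 1 at 4.83, with the others at 5.19 to 5.26, and Zfp423 had GnRH replicate 3 at 5.57, with the others at 5.00 to 5.09.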

How the results depend on the processing

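The count of higher Zfp genes was 1 and became 0 with no background correction, with an offset of 50 and with no filter on dim probes, and it ranged from 0 to 1 with 1 array left out. The log2 change of Zfp184 was 1.10 (adjusted p = 0.108), 1.09 (adjusted p = 0.125) and 1.62 (adjusted p = 0.337) in those settings (limma), and 1.42 to 1.87 with 1 array left out. It stayed called in 12 of 15 other settings and in 1 of 8 with an array left out, and adjusted p-values over all 23 ran from 0.00735 to 0.337. With the replicate number as a block (replicate block) its limma adjusted p was 0.0124 at a change of 1.62, and 43 probes of the whole array were higher in place of 30. The labels do not say that the numbers pair the samples, so the reported fit has no block. Correlations of same-numbered deviations were 0.72, -0.23, 0.26 and 0.65 for numbers 1 to 4. Any variation shared within a number is thus left in the error of that fit. With array weights 46 probes were higher and 4 lower, with sample runs as a block 45 were higher, and with no filter 14. These runs are consecutive sample numbers grouped by choice, since no label or header names a run. With GnRH replicate 1, GnRH replicate 2 or vehicle replicate 3 left out they numbered 18, 16 and 17. The change of Zfp184 minus the median of the other Zfp probes was 1.67, and 1.12 with no background correction and 1.12 with an offset of 50. Without normalization between arrays the median of all tested probes shifted to 0.11 and that of the Zfp probes to 0.062. The 167 genes tested became 277 with no filter. The counts of lower Zfp genes and of called KRAB partners stayed 0 in every setting. Of 906 values of the other named genes 888 kept their sign and 18 did not, and none was called. Signs turned without normalization between arrays for Zfp46 (0.062), Zfp809 (0.019), Zfp318 (0.029) and Zfp385a (0.0029), with array weights for Zfp251 (-0.019) and Zfp597 (-0.14), with sample runs as a block, a setting chosen after seeing the data, for Zfp148 (-0.044) and Zfp809 (0.018), and with the brightest probe for Zfp790 (0.29). With 1 array left out Zfp251 ranged from -0.056 to 0.11, Zfp148 from -0.11 to 0.17, Zfp597 from -0.18 to 0.23, Zfp809 from -0.16 to 0.051 and Zfp91 from -0.15 to 0.23. Slide as a block was not run, since the headers give no slide.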
